A study of Mus musculus with 6 samples.

Results

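Urocortin 3 and somatostatin form a feedback loop between the beta and delta cells of the pancreatic islet. Its 10 genes were followed here out of 47643 genes in the deposited count tables: the ligand Ucn3, the CRF receptors Crhr1 and Crhr2, the hormone Sst, the somatostatin receptors Sstr1, Sstr2, Sstr3 and Sstr5, and the delta-cell genes Hhex and Ghsr. They were found by gene symbol in the annotated tables, and each symbol matched 1 gene. RNA sequencing was done on islets of TG mice, in which a transgene described as specific to beta cells encodes the microRNA miR-203, and of wild-type (WT) mice. All mice were labelled male and 10-week-old, and all were fasted for 12 h before the islets were taken. There were 3 TG and 3 WT libraries, with TG 1, TG 2, WT 1 and WT 2 in the first table and TG 3 and WT 3 in the second. The sources used here name neither the promoter that drives the transgene nor the number of founder lines. They also do not say whether each library was a separate animal, and p-values therefore measure the spread among these samples only, part of which may be technical.

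In mouse islets, mature beta cells make urocortin 3 and release it together with insulin. Urocortin 3 acts on the CRF receptor type 2 of delta cells, a receptor that couples to the stimulatory G protein and raises cyclic AMP, and the delta cells then release somatostatin. Somatostatin in turn acts on beta and alpha cells through receptors that couple to inhibitory G proteins, lower cyclic AMP and open potassium channels, and so restrains insulin and glucagon release. A microRNA lowers the output of messenger RNAs that pair with its seed.

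The seed of the transgene's microRNA is shown first because it sets which of the 10 genes hold a matching site. The mature sequence is from RefSeq (GRCm38.p6, chr12:112130927-112130948, plus strand), with the seed, bases 2 to 8, in capitals.
mmu-miR-203-3p: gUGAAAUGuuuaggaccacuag
The DNA letters that pair with this seed, CATTTCA, were searched on the sense strand of the 3′ untranslated regions of GRCm38. They occurred in 16.0% of the 20996 genes with such a region and in 2 of the 10 genes of the loop. The sites of Hhex (chr19:37440313-37440341, plus strand) and Ghsr (chr3:27375910-27375938, plus strand) are shown with their flanks, the matching letters in capitals.
Hhex site: aactccaaagcCATTTCAgagcacttggc
Ghsr site: attaagttataCATTTCAaaaatatgttt
No such match lay in the 468 bases of the Ucn3 region. A match is a description of letters and not a measured binding site.

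Total counts were between 21615905 and 27482339 in the TG libraries and between 20176456 and 24631199 in the WT libraries. Reads on the Mir203 gene, the check on the transgene, numbered 170, 164 and 150 in TG 1, TG 2 and TG 3, against 39, 0 and 0 in WT 1, WT 2 and WT 3. The library labelled WT 1 therefore held reads that the other WT libraries lacked. By overall profile TG 2 stood nearer to WT 1 than to any other library, where chi-square over its degrees of freedom was 31.6 across 13065 genes, against 335 between TG 2 and TG 1. Ins2, an insulin gene and defining beta-cell transcript, took 2.47, 13.7 and 3.04% of the counts in TG 1, TG 2 and TG 3, and 14.3, 15.5 and 8.57% in WT 1, WT 2 and WT 3. Xist, a transcript of female cells, had 27240 counts in TG 3 and 25145 in WT 3, against at most 13 in the 4 libraries of the first table, although every mouse is labelled male. Genotypes were therefore compared with the table as a term in the fit, and calls that appear only without TG 2 are given beside the fit over all 6 libraries. TG 2 was set apart by its expression profile, while its Mir203 reads were like those of TG 1 and TG 3. Leaving out the TG library most like WT favours more calls, so every p-value and count without TG 2 is a description and not an independent test.

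Ucn3 (chr13:3940688-3945349, minus strand, GRCm38) was the member with the widest spread. Its level was 3.03, 139 and 4.73 CPM in TG 1, TG 2 and TG 3, against 215, 271 and 380 CPM in WT 1, WT 2 and WT 3, where CPM is the read count scaled to TMM-adjusted library size. Every TG library lay below every WT library, but TG 1 and TG 3 lay far below and TG 2 only a little below. Against the WT libraries of its own table, Ucn3 was 80.3-fold lower in TG 1 and also 80.3-fold lower in TG 3, and 1.75-fold lower in TG 2. With all 6 libraries the log2 fold change was -2.99 with a standard error (SE) of 1.49, which missed the threshold of 0.05 (edgeR quasi-likelihood test, Benjamini-Hochberg adjusted p = 0.410). Without TG 2 it was -6.33 (SE 0.20, edgeR adjusted p = 8.79e-05), and without the library labelled WT 1 it was -3.87 (SE 1.94, edgeR adjusted p = 0.559). Leaving out 1 library at a time gave values from -6.33 to -1.77, the weakest without TG 3 or WT 3. Fitted with its own TG effect in each table, Ucn3 gave a difference of -4.55 on the log2 scale (second minus first). TG 2 is in the first table, and the second holds 1 library of each genotype. That fit borrows the spread of the first table, so it cannot decide whether the TG effect differs between the tables.

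**Figure D1:**
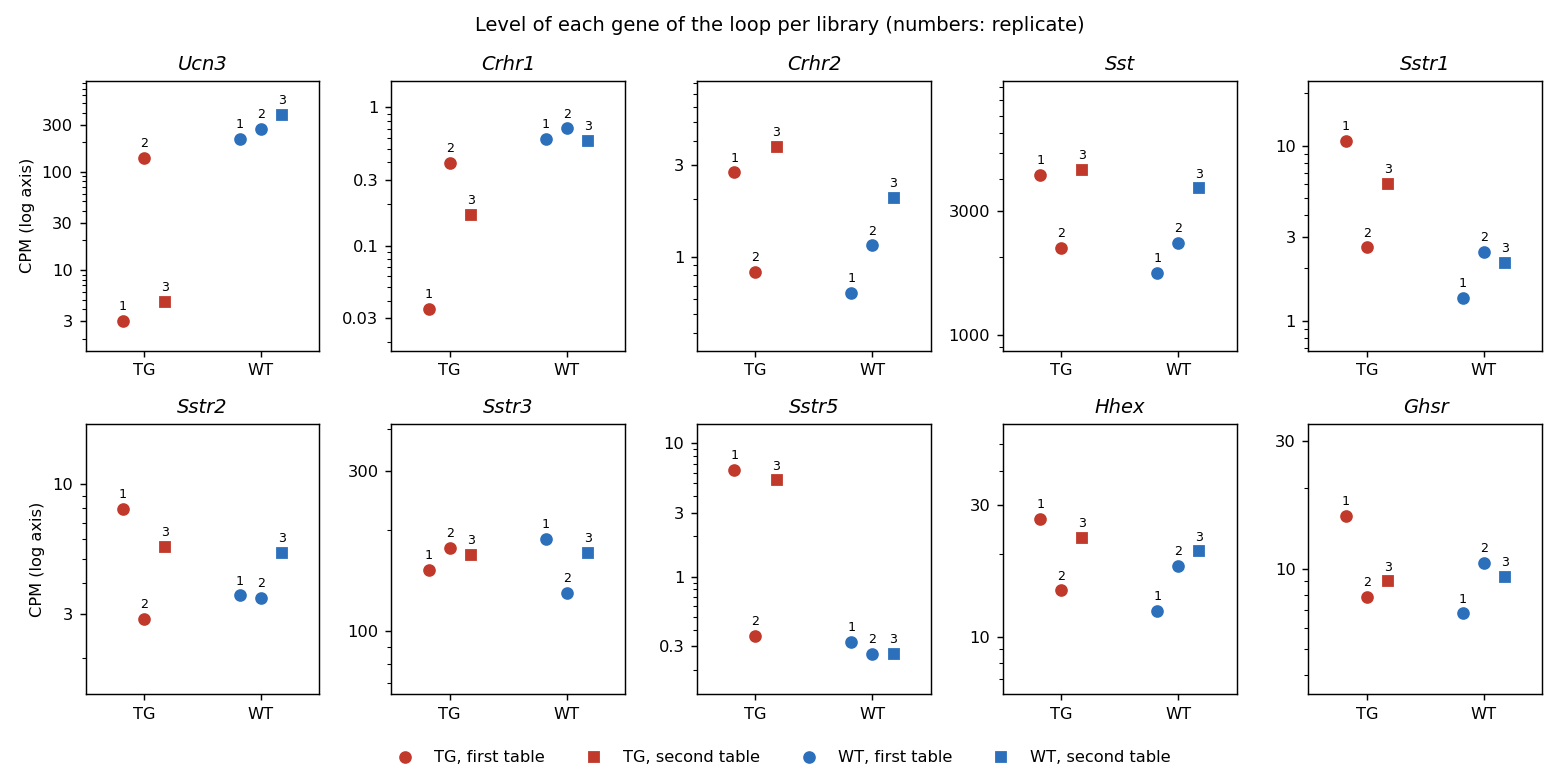
Level of each of the 10 genes in CPM on a log axis, 1 point per library, with TG left of WT and the replicate number beside each point; circles are the first table and squares the second. Ucn3 lies at 3.03 and 4.73 CPM in TG 1 and TG 3 but at 139 CPM in TG 2, below all 3 WT libraries, and Sstr5 shows the opposite order.

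The lower Ucn3 level came together with lower levels of other beta-cell transcripts. In bulk islets, fewer cells of a type and less RNA per cell cannot be told apart. The summed level of 10 beta-cell markers was 56140, 224300 and 54070 CPM in TG 1, TG 2 and TG 3, against 238300, 230700 and 116800 CPM in the WT libraries, and none of the 10 was at 0. All 10 had a negative fold change, with a median of -1.12, against -0.015 over all 16072 genes tested, and 0 of them passed the edgeR threshold; without TG 2, 9 passed it as lower, beside 4.39% of all genes. Their part in the Ucn3 result was not tested. Per 1000 Ins2 reads, Ucn3 had 0.130, 0.930 and 0.174 reads in TG 1, TG 2 and TG 3, against 1.38, 1.61 and 4.79 in WT 1, WT 2 and WT 3, so it was lower in all TG libraries also relative to insulin.

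Mafa, which drives mature beta-cell genes, had a profile close to that of Ucn3. It had 3.72, 249 and 18.1 CPM in TG 1, TG 2 and TG 3, against 406, 487 and 675 CPM in WT 1, WT 2 and WT 3. For every Mafa read there were 0.813, 0.558 and 0.261 Ucn3 reads in the TG libraries and 0.530, 0.556 and 0.563 in the WT libraries, ranges that overlap. Pdx1, another beta-cell factor, had 74.1, 88.9 and 94.4 CPM in the TG libraries and 143, 143 and 141 CPM in the WT libraries, a difference of -0.73 on the log2 scale (SE 0.14, edgeR adjusted p = 0.199). Among 12 transcription factors of beta and delta cells, 9 had a positive and 3 a negative fold change, and 0 passed the edgeR threshold. Without TG 2, 2 passed as lower, beside 4.39% of all genes, Mafa (-6.10, edgeR adjusted p = 0.00104) and Pdx1 (-0.79, edgeR adjusted p = 0.0152).

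The 250 bases before the start of Ucn3 are shown because homeodomain factors such as Pdx1 bind short TAAT cores. The stretch is from RefSeq (GRCm38.p6, chr13:3945350-3945599, minus strand), with TAAT and its reverse complement ATTA in capitals.
Ucn3 promoter: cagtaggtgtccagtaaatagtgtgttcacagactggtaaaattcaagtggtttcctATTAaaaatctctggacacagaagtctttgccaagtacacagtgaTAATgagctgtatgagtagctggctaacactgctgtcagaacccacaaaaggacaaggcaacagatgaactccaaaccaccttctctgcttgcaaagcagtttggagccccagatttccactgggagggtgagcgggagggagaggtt
It held 2 such matches, at bases -193 to -190 and -148 to -145 from the start. TAAT on either strand occurred in 54.9% of the 32851 promoters in the table and in 3 of the 8 members with an entry, so it is a common word. The MAF core TGCTGA, searched on both strands, occurred in 16.1% of promoters and in those of Sst, Ghsr and Crhr1.

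Both CRF-family receptors had few reads, and reads are not compared between them because the genes differ in length. Crhr1 (chr11:104132855-104175523, plus strand), the receptor for corticotropin-releasing factor that beta cells carry, had 1, 10 and 4 reads in TG 1, TG 2 and TG 3, against 11, 16 and 13 reads in WT 1, WT 2 and WT 3. These are 0.0348, 0.397 and 0.166 CPM, against 0.594, 0.704 and 0.569 CPM, and the 95% Poisson interval of the single read in TG 1 reached 0.194 CPM. Every TG library lay below every WT library, although with so few reads the intervals of TG 2 (0.190 to 0.730 CPM) and WT 1 (0.296 to 1.06 CPM) overlap. The log2 fold change was -1.65 (SE 0.70, edgeR adjusted p = 0.353), and without TG 2 it was -2.70 (SE 0.72, edgeR adjusted p = 0.0556).

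Crhr2 (chr6:55090049-55133016, minus strand), the urocortin 3 receptor of delta cells, had 2.75, 0.834 and 3.74 CPM in TG 1, TG 2 and TG 3, against 0.648, 1.14 and 2.01 CPM in WT 1, WT 2 and WT 3. The groups overlap, since TG 2 lay below WT 2 and WT 3. Its log2 fold change was 0.95 (SE 0.49, edgeR adjusted p = 0.424), and it was 0.38 without TG 1 (edgeR adjusted p = 0.814) and 1.28 without TG 2 (edgeR adjusted p = 0.0630). Per 1000 Sst reads there were 0.665, 0.386 and 0.865 Crhr2 reads in the TG libraries, against 0.373, 0.506 and 0.549 in the WT libraries. Of the other ligands, Ucn had 0 reads in all 6 libraries, Crh had 1 read in TG 2 alone, and Ucn2 had at most 3 reads in a library. For a count of 0 a fixed limit of 3 reads was used, between 0.104 and 0.162 CPM in these libraries. It is not the exact 95% Poisson interval given for other counts, which would reach higher.

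Sst (chr16:23889581-23890844, minus strand), is the hormone that delta cells release. It had 4133, 2158 and 4321 CPM in TG 1, TG 2 and TG 3, against 1737, 2262 and 3668 CPM in WT 1, WT 2 and WT 3. TG 1 and TG 3 had the highest levels of the 6 libraries, but TG 2 lay below WT 2 and WT 3, and within the second table TG 3 was 1.18-fold above WT 3. The log2 fold change was 0.51 (SE 0.30, edgeR adjusted p = 0.478), and it was 0.16 without TG 1 (edgeR adjusted p = 0.848) and 0.70 without TG 2 (edgeR adjusted p = 0.120).

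The promoters of Sst and Sstr2 are shown because both hold the full cyclic AMP response element TGACGTCA, the site through which the Sst gene is known to respond to cyclic AMP. It occurred in 1.55% of all promoters in the table and in 2 of the 8 members with an entry. It is given in capitals, in 250 bases before Sst (GRCm38.p6, chr16:23890845-23891094, minus strand) and in a 68-base stretch around the element in the Sstr2 promoter (chr11:113619239-113619306, plus strand), which ends short of the start.
Sst promoter: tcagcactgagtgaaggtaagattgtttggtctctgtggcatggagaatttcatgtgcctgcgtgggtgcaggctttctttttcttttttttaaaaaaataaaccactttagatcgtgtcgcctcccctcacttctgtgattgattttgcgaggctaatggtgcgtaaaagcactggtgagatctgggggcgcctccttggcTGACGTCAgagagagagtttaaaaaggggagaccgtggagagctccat
Sstr2 promoter stretch: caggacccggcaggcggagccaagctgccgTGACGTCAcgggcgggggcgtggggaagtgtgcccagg
The element lay at bases -48 to -41 in Sst and -58 to -51 in Sstr2, counted from each RefSeq promoter entry's start, and it reads the same on both strands. A match of letters does not show that a factor bound there.

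Sstr5 and Sstr1 were the somatostatin receptors whose TG libraries all lay above the WT libraries. Sstr5 (chr17:25489875-25497288, minus strand), through which somatostatin restrains insulin release in mice, had 182, 9 and 127 reads in TG 1, TG 2 and TG 3, against 6 reads in each WT library. These are 6.33, 0.357 and 5.27 CPM, against 0.324, 0.264 and 0.263 CPM. Against the WT libraries of its table it was 21.5-fold higher in TG 1 and 20.1-fold higher in TG 3, and 1.22-fold higher in TG 2. The 9 reads of TG 2 and the 6 of WT 1 have exact 95% Poisson intervals that overlap almost wholly, 0.163 to 0.678 CPM and 0.119 to 0.705 CPM. Sstr5 did not pass the low-count filter, which asks for expression in 3 libraries. With the filter met in 2 libraries, a setting added after the counts were seen, its fitted log2 fold change was 3.77 (SE 1), and without TG 2 it was 4.37 (SE 0.32). Sstr5 entered both fits only through TG 1 and TG 3, the libraries where it is high, so these values are descriptions and no p is given.

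Sstr1 (chr12:58211772-58214444, plus strand) had 10.6, 2.62 and 6.06 CPM in TG 1, TG 2 and TG 3, against 1.35, 2.46 and 2.15 CPM in WT 1, WT 2 and WT 3. No TG library lay below a WT library, but the exact 95% Poisson intervals of TG 2 (2.03 to 3.33 CPM) and WT 2 (1.86 to 3.20 CPM) overlap. The log2 fold change was 1.69 (SE 0.54), which missed the threshold in edgeR (adjusted p = 0.258) and passed it in DESeq2 (adjusted p = 0.0406). Without TG 2 it was 2.06 (SE 0.34, edgeR adjusted p = 0.0120), without TG 1 it was 0.92 (edgeR adjusted p = 0.560) and without WT 1 it was 1.46 (edgeR adjusted p = 0.501).

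Sstr3 and Sstr2 overlapped between the genotypes. Sstr3 (chr15:78537015-78544345, minus strand), the most abundant of the 4 receptors and one found on the primary cilium of beta cells, had 152, 177 and 169 CPM in TG 1, TG 2 and TG 3, against 188, 130 and 171 CPM in WT 1, WT 2 and WT 3, with a log2 fold change of 0.03 (SE 0.18, edgeR adjusted p = 0.964). Sstr2 (chr11:113619342-113626028, plus strand), the main receptor of alpha cells in mice, had 7.93, 2.86 and 5.60 CPM in the TG libraries, against 3.56, 3.48 and 5.30 CPM in the WT libraries. Its log2 fold change was 0.44 (SE 0.40, edgeR adjusted p = 0.653), and it was -0.13 without TG 1 (edgeR adjusted p = 0.909) and 0.71 without TG 2 (edgeR adjusted p = 0.160). The summed level of 8 alpha-cell markers also overlapped, with 48070, 29920 and 22840 CPM in TG and 18820, 27420 and 25640 CPM in WT. Sstr2 overlaps Slc39a11 on the opposite strand and the strand setting of the counting is not stated, so its level is uncertain.

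**Figure D2:**
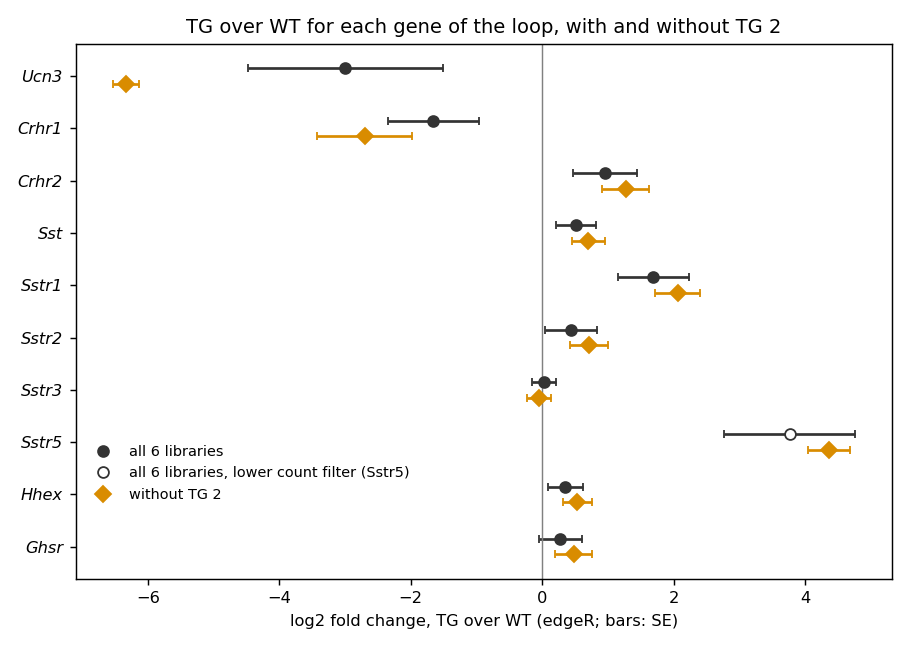
Log2 fold change of TG over WT for each gene, as points with SE bars from edgeR, over all 6 libraries (dark) and without TG 2 (orange); Sstr5 (open point, filter met in 2 libraries) entered both fits only through TG 1 and TG 3. Ucn3 is at -2.99 over all 6 libraries and at -6.33 without TG 2, and Sstr3 is at 0.03 and -0.05.

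Of the 9 members that passed the low-count filter, 7 had a positive and 2 a negative fold change, with a median of 0.35, against 48.1% positive and a median of -0.015 over all 16072 genes. With edgeR 0 of the 9 passed the adjusted threshold, as did 0% of all genes, and at an unadjusted p under 0.05 there was 1 higher, Sstr1, and 1 lower, Crhr1, beside 9.32% and 4.81% of all genes. DESeq2 called 1 member higher, Sstr1, beside 4.07% of the genes it adjusted, and 0 lower, beside 0.898%, and limma-voom called 0. Without TG 2, Sstr1 of these 9 passed as higher, beside 8.82% of all genes, and Ucn3 as lower, beside 4.39%; Sstr5 is not counted, since it entered that fit only through the libraries where it is high. The TG libraries all lay below all WT libraries for 2 of the 9, Ucn3 and Crhr1, beside 6.42% of genes, and all above for 1 of the 9, Sstr1, beside 6.96%; Sstr5, outside the filter, also lay above.

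Levels were compared between genes only as FPKM, the deposited length-scaled values, which were made separately for each table. In WT islets Sst stood first at 4367 ± 2109 FPKM, then Ucn3 at 199 ± 75.7, Sstr3 at 41.7 ± 8.86 and Hhex at 8.95 ± 2.79 (SD, n = 3). Ghsr at 2.01 ± 0.48 and Sstr2 at 1.95 ± 0.67 FPKM were not separated beyond their spread, nor were Crhr2 at 0.256 ± 0.161 and Crhr1 at 0.252 ± 0.022 FPKM (SD, n = 3). Ucn3 ranked 8th, 2nd and 4th among the 10 genes in TG 1, TG 2 and TG 3, against 2nd in every WT library.

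Sstr3 made up 77.6, 94.3 and 85.1% of the summed FPKM of the 4 receptors in TG 1, TG 2 and TG 3, against 95.2, 91.9 and 92.3% in WT 1, WT 2 and WT 3. Sstr1 made up 10.4, 2.68 and 5.88% in the TG libraries, against 1.31, 3.34 and 2.23% in the WT libraries. Sstr5 made up 4.63, 0.274 and 3.83% in the TG libraries, against 0.235, 0.268 and 0.204% in the WT libraries. The summed receptor level itself overlapped, at 47.7, 45.6 and 55.1 FPKM in TG and 47.8, 34.3 and 52.0 FPKM in WT. The receptor mixture thus held more Sstr1 and Sstr5 in TG 1 and TG 3, while the mixture in TG 2 lay within or near the WT range.

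**Figure D3:**
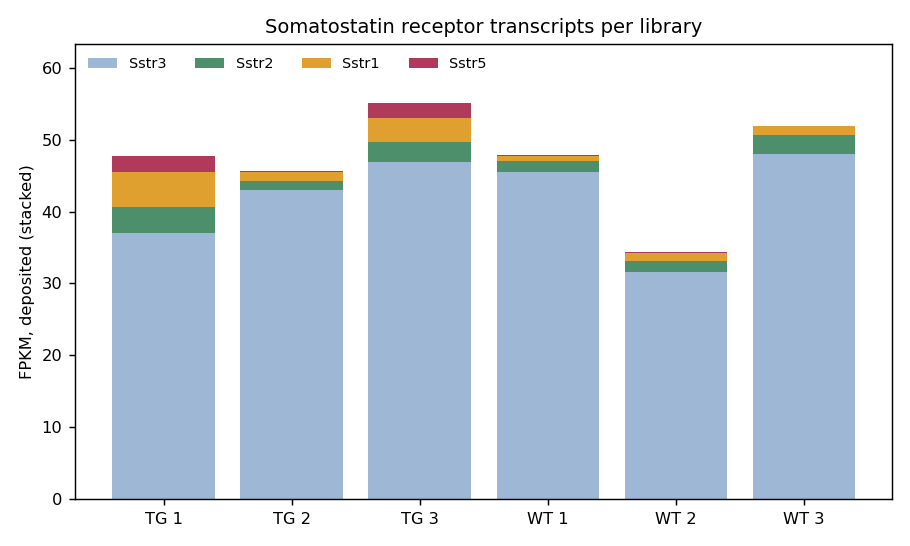
FPKM of Sstr1, Sstr2, Sstr3 and Sstr5 as stacked bars, 1 per library, TG left of WT. Sstr3 is the largest component everywhere, and its share is lowest in TG 1 at 77.6%.

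Hhex and Ghsr are delta-cell genes besides Sst. Hhex (chr19:37434810-37440731, plus strand), a transcription factor that maintains delta cells, had 26.8, 14.7 and 22.9 CPM in TG 1, TG 2 and TG 3, against 12.4, 18.1 and 20.4 CPM in WT 1, WT 2 and WT 3 (log2 fold change 0.35, SE 0.27, edgeR adjusted p = 0.587). The Hhex value was 0.04 without TG 1 (edgeR adjusted p = 0.968) and 0.53 without TG 2 (edgeR adjusted p = 0.160). Ghsr (chr3:27371351-27378010, plus strand), the ghrelin receptor, had 15.8, 7.82 and 8.97 CPM in the TG libraries, against 6.80, 10.5 and 9.32 CPM in the WT libraries (log2 fold change 0.28, SE 0.33, edgeR adjusted p = 0.737). The Ghsr value was -0.11 without TG 1 (edgeR adjusted p = 0.924) and 0.48 without TG 2 (edgeR adjusted p = 0.300). TG and WT overlap for both genes, and both genes hold a miR-203 seed match.

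Per 1000 Sst reads, Hhex had 6.49, 6.83 and 5.29 reads in TG 1, TG 2 and TG 3, against 7.15, 7.995 and 5.56 reads in WT 1, WT 2 and WT 3. Ghsr had 3.82, 3.62 and 2.08 reads per 1000 Sst reads in the TG libraries, against 3.92, 4.65 and 2.54 in the WT libraries. Rbp4, a retinol carrier enriched in delta cells, had 181, 138 and 111 reads per 1000 Sst reads in the TG libraries, against 112, 113 and 71.2 in the WT libraries. Within each table Hhex and Ghsr were thus slightly fewer per Sst read in TG, and Rbp4 was more; these ratios were not tested.

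**Figure D4:**
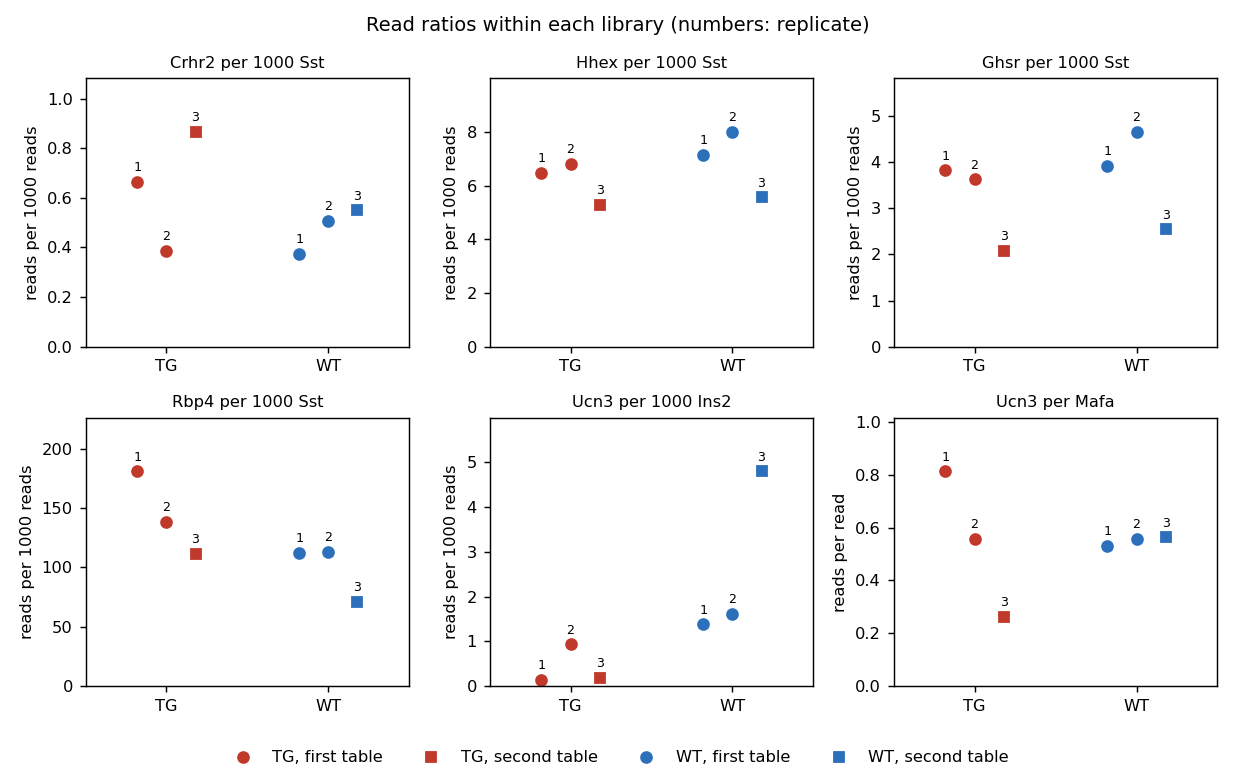
Reads of delta-cell genes per 1000 Sst reads, Ucn3 reads per 1000 Ins2 reads and Ucn3 reads per Mafa read in each library, TG left of WT. Hhex per 1000 Sst reads stays between 5.29 and 7.995 in all 6 libraries.

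Of 7 other delta-cell markers listed, 5 were tested, Rbp4, Ffar4, Etv1, Frzb and Isl1. Isl1 is also in the list of transcription factors of beta and delta cells, so it does not mark delta cells alone. All 5 had a positive fold change, with a median of 0.565, and 0 passed in edgeR. DESeq2 called 2 of them higher, beside 4.07% of genes, and edgeR without TG 2 called 3 of the 5, beside 8.82%. Rbp4 had 748, 299 and 481 CPM in TG 1, TG 2 and TG 3, against 195, 255 and 261 CPM in WT 1, WT 2 and WT 3 (log2 fold change 1.11, SE 0.34, edgeR adjusted p = 0.250; without TG 2, 1.37, edgeR adjusted p = 0.0123). Ffar4, a fatty acid receptor of delta cells, had 27.99, 11.3 and 24.8 CPM in the TG libraries, against 8.04, 10.6 and 8.54 CPM in the WT libraries (log2 fold change 1.23, SE 0.35, edgeR adjusted p = 0.238; without TG 2, 1.56, edgeR adjusted p = 0.00317). Lepr, the leptin receptor, had 308, 10 and 68 reads in the TG libraries, against 5, 2 and 0 in the WT libraries. For the count of 0 in WT 3 the fixed limit of 3 reads is 0.131 CPM. Lepr did not pass the low-count filter over all libraries. Without TG 2 it passes only through TG 1 and TG 3, where it is high, and is not counted. Nkx6-3, which also did not pass the filter, had 9, 4 and 1 reads in the TG libraries, against 5, 6 and 8 in the WT libraries. Its mean level was lower in TG, at 0.171 CPM against 0.295 CPM in WT. For Frzb the groups overlapped, at 180, 125 and 192 CPM in TG and 138, 125 and 140 CPM in WT. A separate list of 7 delta-cell markers counts Sst itself and Hhex, and most of its sum is Sst. That sum was 4964, 2491 and 4865 CPM in TG and 1960, 2557 and 3969 CPM in WT.

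Summed markers of some other cell types, but not of all, were also high in TG 1 and TG 3. For the PP-cell and duct markers TG 2 also lay above every WT library, and for the stellate and fibroblast markers it did not. The summed level of 4 PP-cell markers, pancreatic polypeptide and its companions, was 22880, 11780 and 32600 CPM in TG 1, TG 2 and TG 3, against 7097, 7553 and 4726 CPM in WT 1, WT 2 and WT 3. That of 7 stellate and fibroblast markers was 135, 18.7 and 119 CPM in TG, against 13.3, 41.1 and 69.5 CPM in WT, and that of 8 duct markers 2014, 1492 and 1587 CPM, against 1041, 762 and 689 CPM. None of these markers was at 0 in every library. Their part in the levels of the somatostatin receptors was not tested.

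Below the CRF receptors, the genes of the stimulatory pathway showed no common direction. Of 14, 6 had a positive and 8 a negative fold change, with a median of -0.025, and 0 passed in edgeR. Adcy1, a calcium-stimulated adenylyl cyclase, had 30.9, 1.79 and 10.3 CPM in TG 1, TG 2 and TG 3, against 1.73, 3.70 and 1.23 CPM in WT 1, WT 2 and WT 3 (log2 fold change 2.73, SE 0.93, edgeR adjusted p = 0.276; without TG 2, 3.33, edgeR adjusted p = 0.00211). Rapgef4, the cyclic AMP sensor Epac2 that promotes insulin release, had 44.5, 59.5 and 41.8 CPM in the TG libraries, against 82.9, 82.5 and 66.3 CPM in the WT libraries. All TG libraries lay below all WT libraries for Rapgef4, beside 6.42% of all genes. Its log2 fold change was -0.67 (SE 0.15, edgeR adjusted p = 0.199), and without TG 2 it was -0.80 (edgeR adjusted p = 0.00961). Without TG 2, 2 of the 14 passed as higher, Gnas and Adcy1, beside 8.82% of all genes, and 1 as lower, Rapgef4, beside 4.39%.

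Below the somatostatin receptors, Gnai1 of the inhibitory G protein family had a positive fold change. The other members listed had negative ones, Gnai2, Gnai3 (-0.42), Gnaz (-0.27) and Gnao1 (-0.15), on the log2 scale. Gnai1 had 85.9, 33.8 and 63.6 CPM in TG 1, TG 2 and TG 3, against 27.5, 29.9 and 18.7 CPM in WT 1, WT 2 and WT 3 (log2 fold change 1.29, SE 0.35, edgeR adjusted p = 0.233; without TG 2, 1.66, edgeR adjusted p = 0.00103). Gnai2 had 347, 463 and 398 CPM in the TG libraries, against 582, 636 and 1242 CPM in the WT libraries (log2 fold change -0.94, SE 0.27, edgeR adjusted p = 0.238; without TG 2, -1.16, edgeR adjusted p = 0.0208). For neither gene did the groups overlap, beside 6.96% of all genes with TG above and 6.42% with TG below. Rgs16, which speeds the shut-off of inhibitory G proteins, had 107, 46.6 and 125 CPM in the TG libraries, against 44.2, 26.4 and 17.99 CPM in the WT libraries (log2 fold change 1.66, SE 0.47, edgeR adjusted p = 0.238; without TG 2, 2.11, edgeR adjusted p = 0.00936). Of 12 tested genes of this list 7 had a positive and 5 a negative fold change, and 0 passed in edgeR. Without TG 2, 3 passed as higher, Gnai1, Rgs16 and the potassium channel gene Kcnj5, beside 8.82% of all genes. Lower calls without TG 2 were 2, Gnai2 and Gnai3, beside 4.39%.

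A list of 7 genes around the processing of the somatostatin or urocortin precursor held enzymes and their helpers. Not each of them need act on both precursors. In this list 5 had a positive and 2 a negative fold change, with a median of 0.29, and 0 passed in edgeR. DESeq2 called Scg5, a chaperone of prohormone convertase 2, higher (0.68, adjusted p = 0.0142), beside 4.07% of the genes it adjusted. It called Pcsk2 lower (-0.46, adjusted p = 0.0142), beside 0.898%. Without TG 2, edgeR called 1 of the 7 higher, Pam, beside 8.82% of all genes, and 0 lower, beside 4.39%. Pam, which amidates peptide ends, had 1301, 817 and 859 CPM in TG 1, TG 2 and TG 3, against 712, 603 and 570 CPM in WT 1, WT 2 and WT 3 (log2 fold change 0.66, SE 0.22, edgeR adjusted p = 0.277; without TG 2, 0.81, edgeR adjusted p = 0.0314). Pcsk2, a prohormone convertase, had 1332, 1411 and 1737 CPM in the TG libraries, against 1845, 1962 and 2350 CPM in the WT libraries (log2 fold change -0.46, SE 0.17, edgeR adjusted p = 0.310). Of 6 genes of receptor desensitisation, 2 had a positive and 4 a negative fold change, and 0 passed in edgeR.

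**Figure D5:**
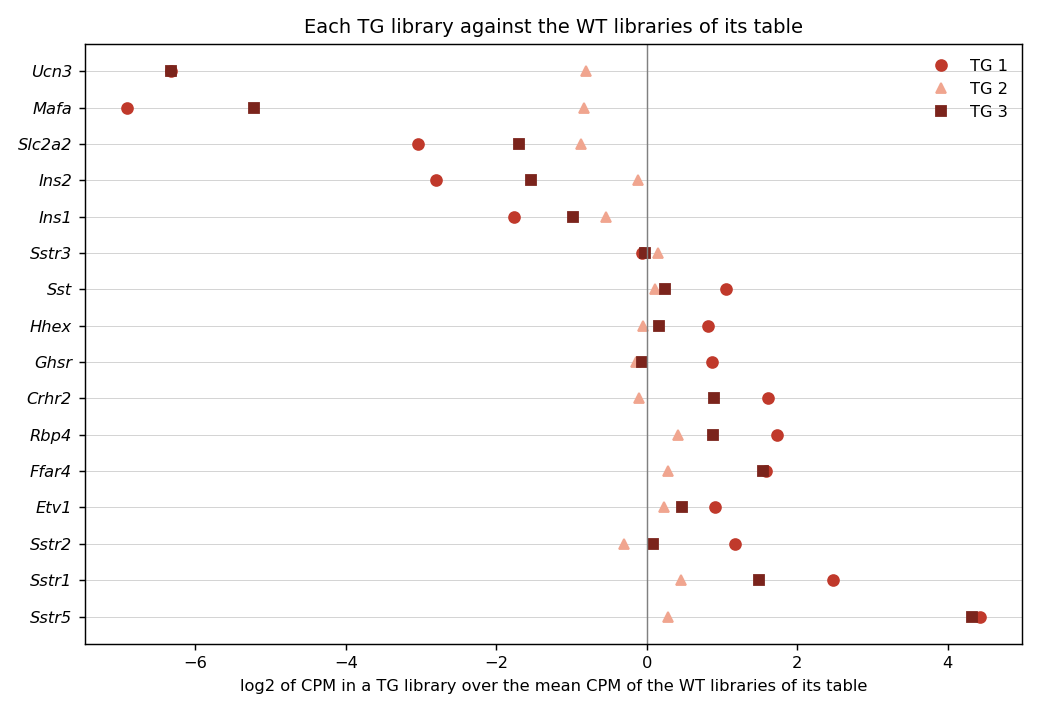
Level of selected genes in each TG library over the WT libraries of its own table, as log2 of the ratio of CPM, 1 point per library. TG 1 and TG 3 give 80.3-fold lower Ucn3 and 21.5-fold and 20.1-fold higher Sstr5, and TG 2 gives 1.75-fold lower Ucn3 and 1.22-fold higher Sstr5.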

How the data were processed

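Per the submitters' processing notes, CASAVA 1.8 and HISAT2 were used with mouse build GRCm38 (mm10); the read counter, strandedness and gene annotation version are not stated. The authors deposited raw counts, a normalized signal (the count times about 1 factor per library) and FPKM scaled from that signal, made separately for each table. Counts were joined on gene ID and modelled in R 4.3.3 by edgeR 4.0.16 (filterByExpr, TMM, quasi-likelihood F-test, table and genotype as terms) over 16072 genes, with Benjamini-Hochberg adjustment at 0.05. SE is the absolute log2 fold change over the square root of F. DESeq2 1.42.0 and limma 3.58.1 were alternatives. Scripts were tested on simulated data. The genes and lists were chosen with earlier results of these data known. Intervals cover counting error only. The text may name the 10 members, any gene of the lists and, for Ucn3 and Sst, the 5 genes most like and 3 most opposite by Pearson correlation; which list genes to describe was chosen after their values were seen. Replicate numbers follow accession order.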

Additional observations from a re-analysis of the deposited data

How the results depend on the processing

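The count of genes past the threshold depended on the tool and on TG 2. It was 0 higher and 0 lower in edgeR, 616 higher and 136 lower in DESeq2, and 1300 higher and 372 lower in edgeR with no low-count filter, where the bias-adjusted form of the same fit gave 0 and 0. Leaving out 1 library at a time gave between 0 and 1461 higher and between 0 and 727 lower, with both high values from the fit without TG 2. Of 158 alternative values with an adjusted p, 147 kept direction and side of the threshold, 7 passed it newly and 4 changed sign. For 1 more, Crhr1 in DESeq2, there was no adjusted p. The 7 passes belonged to Ucn3, Sstr1 and Sstr5, in the fit without TG 2, in edgeR with no low-count filter or in DESeq2. Those with no low-count filter were lost in the bias-adjusted form. Sstr5 was compared with the setting added after the counts were seen. It entered the fit without TG 2 only through TG 1 and TG 3, so its passes are a description. The sign changes were Sstr2 at -0.13 and Ghsr at -0.11 without TG 1, and Sstr3 at -0.05 without TG 2 and -0.12 without WT 2, all on the log2 scale; leaving out 1 library at a time, these 3 genes reached 0.71, 0.48 and 0.20 at most. The causes were not tested. Crhr1 and Sstr5 rest on few reads in some libraries. No paired analysis was possible because the labels give no replicate numbers shared between the genotypes.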

Other observations

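The genes whose profiles were most like those of the loop's ligands were listed over 6 libraries with the mean of each table subtracted, among 3357 genes, as a description with no test. These libraries share the split of TG 1 and TG 3 from the rest, which bears on every such likeness. Those most like Ucn3 were Dus2, Erich3, Cbs, Cyp4f39 and P2ry6 (Pearson r from 0.997 to 0.998), and those most opposite were Sdk1, Dock6 and Slc4a3 (-0.999). P2ry6, a receptor for UDP, had 2.16, 13.6 and 5.31 CPM in TG 1, TG 2 and TG 3, against 22.6, 24.6 and 54.2 CPM in WT 1, WT 2 and WT 3. Cbs, an enzyme of homocysteine metabolism, had 5.56, 33.0 and 9.92 CPM in the TG libraries, against 37.4, 41.5 and 56.9 CPM in the WT libraries. Those most like Sst were Col1a1, Ptprz1, Bri3bp, Hk1 and Ephb2 (0.994 to 0.999), and those most opposite were Prune2, Birc3 and Kif12 (-0.997 to -0.991). Col1a1, a collagen of fibroblasts, had 30.6, 0.913 and 35.3 CPM in the TG libraries, against 0.270, 1.10 and 14.2 CPM in the WT libraries.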
